A study of Rattus norvegicus with 7 samples.

Results

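The 9 chemokine genes Cxcl1, Cxcl2, Cxcl3, Cxcl10, Cxcl16, Ccl2, Ccl7, Ccl20 and Cx3cl1 were followed in rat oral epithelial ROE2 cells during a 12 h exposure to sodium fluoride (NaF). Every probe set whose only gene symbol was one of these names was taken, which gave 13 of the 31099 probe sets on the array and 9 of the 14217 genes it names. Cxcl3 had 5 probe sets and each of the other genes had 1. ROE2 is an immortalized line from the tongue of an 18-day-old fetus of a transgenic Wistar rat. Its transgene, pSVtsA58ori(-)-2, encodes a tsSV40 large T-antigen, where "ts" stands for temperature-sensitive. All groups shared this line, which was grown at 33 °C and moved to 37 °C in medium with 2% serum for 24 h before the treatment. The vehicle group (sterilized water, 1% v/v) had 4 arrays, 1 labelled "control (vehicle only)" without a time, and 1 each at 3, 6 and 12 h. The methods place the control array at 0 h of vehicle, whereas a figure legend of the study calls its control non-treated cells. The NaF group (2 mM) had 1 array each at 3, 6 and 12 h. Each array held RNA pooled from 3 independent experiments, so no condition had a replicate array.

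Chemokines are small secreted proteins that guide leukocytes along a gradient toward the cells that release them. Epithelial cells of barrier tissues such as the oral mucosa make many of them, and most are switched on by cytokines such as tumor necrosis factor and interleukin-1 through the transcription factor NF-kB, with mRNAs that are short-lived because of AU-rich elements. Cxcl1, Cxcl2 and Cxcl3 attract neutrophils through the receptor Cxcr2, Ccl2 and Ccl7 attract monocytes through Ccr2, Ccl20 attracts Ccr6-bearing dendritic cells and lymphocytes, and Cxcl10 is an interferon-induced ligand of Cxcr3. Cxcl16 and Cx3cl1 differ from the rest in being made as transmembrane proteins, which proteases shed from the cell surface, and they bind Cxcr6 and Cx3cr1.

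The values were log2 signals per probe set, with a median of 5.32 to 5.35 on each of the 7 arrays. Over all probe sets the correlation between any 2 vehicle arrays was 0.9961 to 0.9987 and that between any 2 NaF arrays 0.9848 to 0.9946. The 3' signal of the beta-actin control probes exceeded the 5' signal by 1.53 to 2.83 on the log2 scale in vehicle, widest at 3 h, and by 1.77 to 2.39 in NaF. Of 14 epithelial marker genes, 12 reached a log2 signal of 7, among them the keratins Krt5 and Krt14, the adhesion proteins Cdh1 and Epcam and the basal-cell factor Tp63. The mean over the epithelial list was 10.43 to 10.47 in vehicle and 10.16 to 10.44 in NaF, and at 12 h of NaF 7 of the 14 were lower and 0 higher (limma), against 12.8% and 12.0% of all probe sets, led by Dsg2, a desmosomal cadherin, at -1.06. Among all probe sets that reached 7, tested on their own, 60.6% were called at 12 h in either direction. Of 9 leukocyte markers only Cd14 reached 7, the leukocyte list averaged 5.01 to 5.21 in vehicle and 5.04 to 5.14 in NaF, and Ptprc, the common leukocyte antigen, lay between 2.85 and 3.27 on all 7 arrays. Of 10 fibroblast and mesenchymal markers only Vim reached 7, with list averages of 4.52 to 4.60 in vehicle and 4.35 to 4.54 in NaF, and none of 7 endothelial and 7 skeletal muscle markers did, with list averages of 3.13 to 3.34 and 4.24 to 4.53 over all arrays. Cd14, a coreceptor for bacterial lipopolysaccharide, was lower at 3, 6 and 12 h (-0.74, -1.28 and -0.70), and Vim (-1.19) and the muscle actin Acta1 (-1.50) at 12 h. Lyz2, a myeloid lysozyme, was at 0.94 at 6 h and 0.80 at 12 h and did not pass the test (limma adjusted p = 0.09 at both). The part of these shifts in the chemokine values was not tested. Each array took the same 500 ng of RNA from whole cultures. A change within each cell and a change in the share of cells that express a gene therefore cannot be told apart.

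Some of the chemokine genes lie close together. In the RefSeq gene table (GRCr8) Cxcl2 and Cxcl1 are neighbours on chromosome 14 with Cxcl3 1 protein-coding gene further on, and Ccl2 and Ccl7 are neighbours on chromosome 10. Cxcl10 is 18 protein-coding genes away from Cxcl2, and Cxcl16 is 244 away from Ccl2. Ccl20 on chromosome 9 and Cx3cl1 on chromosome 19 have no other gene of the set on their chromosome. The 250 bases before the annotated start were read from the RefSeq promoter table (GRCr8), which held 7 of the 9 genes, not Cxcl3 and Ccl2. Below, 5 of these are shown 5′ to 3′ on the gene's strand, the 4 with a match to the NF-kB consensus in capitals, and that of Ccl7 as an example of the 3 without one. The other 2 without a match were Cxcl16 and Cx3cl1, so that genes called higher and genes called lower under NaF were both among them.
Cxcl1, chr14:17479322-17479571, minus strand: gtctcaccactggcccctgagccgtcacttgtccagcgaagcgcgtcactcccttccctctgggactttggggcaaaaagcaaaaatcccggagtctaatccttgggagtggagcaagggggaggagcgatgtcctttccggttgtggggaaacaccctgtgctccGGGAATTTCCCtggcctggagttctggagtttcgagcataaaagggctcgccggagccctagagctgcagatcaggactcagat
Cxcl2, chr14:17467256-17467505, minus strand: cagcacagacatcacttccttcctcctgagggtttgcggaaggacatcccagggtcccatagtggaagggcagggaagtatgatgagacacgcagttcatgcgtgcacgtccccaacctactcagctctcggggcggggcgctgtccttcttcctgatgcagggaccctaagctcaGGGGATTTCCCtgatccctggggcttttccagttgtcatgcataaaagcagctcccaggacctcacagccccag
Cxcl10, chr14:15988816-15989065, plus strand: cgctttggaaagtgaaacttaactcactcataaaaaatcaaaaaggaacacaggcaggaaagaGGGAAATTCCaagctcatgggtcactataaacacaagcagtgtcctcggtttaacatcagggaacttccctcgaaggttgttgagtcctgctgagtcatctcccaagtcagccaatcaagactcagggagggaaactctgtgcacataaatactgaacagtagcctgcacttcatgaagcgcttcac
Ccl20, chr9:91836909-91837158, plus strand: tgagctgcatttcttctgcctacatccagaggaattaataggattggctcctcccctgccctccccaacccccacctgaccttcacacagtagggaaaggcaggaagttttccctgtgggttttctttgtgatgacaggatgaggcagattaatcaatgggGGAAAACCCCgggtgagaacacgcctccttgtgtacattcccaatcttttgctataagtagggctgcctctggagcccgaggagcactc
Ccl7, chr10:67513845-67514094, plus strand: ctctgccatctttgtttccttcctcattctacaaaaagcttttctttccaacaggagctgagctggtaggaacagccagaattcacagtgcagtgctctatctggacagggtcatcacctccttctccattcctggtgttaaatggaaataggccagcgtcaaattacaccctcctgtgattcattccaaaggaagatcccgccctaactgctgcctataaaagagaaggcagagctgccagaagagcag
Counted back from the start, the NF-kB match lay at bases 84 to 74 in Cxcl1, 74 to 64 in Cxcl2, 187 to 178 in Cxcl10 and 89 to 80 in Ccl20. In Cxcl1 and Cxcl2 the capitals cover 2 overlapping matches that are offset by 1 base. Both strands were searched, and 3.54% of all 33469 promoters of this length held a match. AP-1, searched as TGANTCA on both strands, was found in Cxcl10 (bases 96 to 90) and Ccl7 (bases 73 to 67), against 6.34% of all promoters. A match describes the letters of the window and does not show that a factor binds there.

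Under NaF the 9 genes did not all follow the same course, though differences between genes were not tested. The neutrophil attractants of this set, Cxcl1, Cxcl2 and Cxcl3, lay above same-time vehicle at 6 and 12 h. Cxcl2 did so most of all, with a signal 15.2-fold that of the 12 h vehicle array. At 3 h they lay below it, at -0.14, -0.62 and -0.19, but against the mean of the 4 vehicle arrays Cxcl1 (0.22) and Cxcl2 (0.17) were above and Cxcl3 (-0.10) below. Ccl2 and Ccl20 were more than 1 log2 unit below same-time vehicle at 3 h and had returned to it, or passed it, by 12 h. Against the vehicle mean Ccl2 was at -1.06 and -0.25 at 3 and 12 h, and Ccl20 at -0.99 and 0.46. None of these changes was called, nor was any rise of the 2 genes between NaF times. Ccl7 and Cx3cl1 were below vehicle at all 3 times. Cxcl10 had its highest signal at 6 h, and Cxcl16 moved least.

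**Figure D1:**
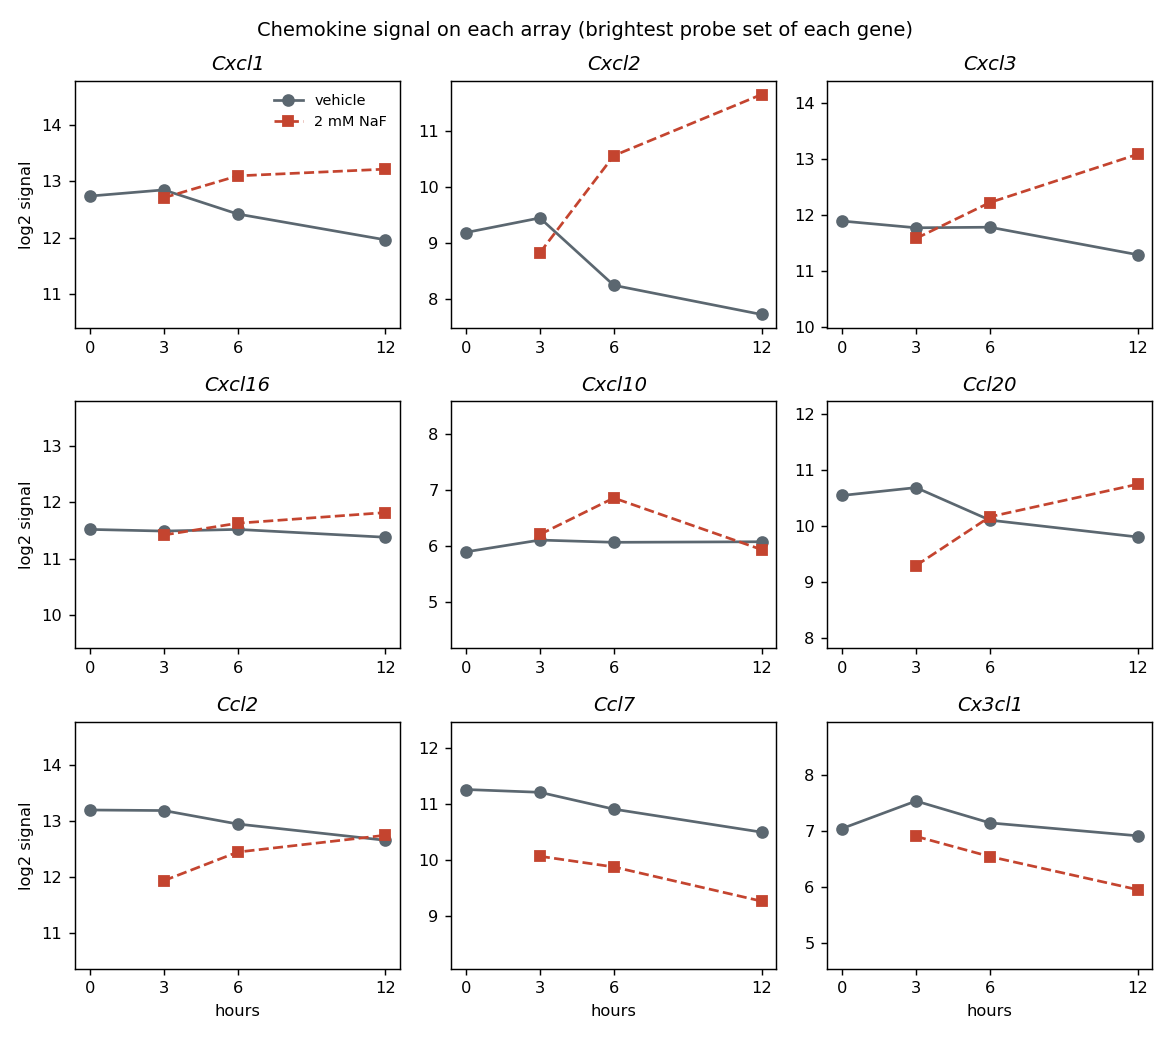
Log2 signal of each chemokine gene (y axis, the same span of log2 units in every panel) against hours (x axis) on the 4 vehicle arrays (circles, solid line) and the 3 NaF arrays (squares, dashed line), 1 array a point, at the brightest probe set of the gene. Cxcl2 parts furthest, at 7.73 in vehicle and 11.65 in NaF at 12 h, and Ccl7 and Cx3cl1 in NaF lie below every vehicle array.

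Cxcl2 had log2 signals of 9.19, 9.45, 8.25 and 7.73 in vehicle at 0, 3, 6 and 12 h and of 8.83, 10.56 and 11.65 in NaF at 3, 6 and 12 h. The NaF array of 3 h lay inside the range of the vehicle arrays and those of 6 and 12 h above it. NaF minus vehicle of the same time was -0.62, 2.31 and 3.92, of which the last 2 ranked 42 and 6 from the highest of 31042 probe sets. These differences are between single arrays and carry no error. The tests were made with limma against the average over all 4 vehicle arrays, which for Cxcl2 was 8.65 ± 0.80 (SD, n = 4). Its change at 6 h was 1.91 (SE 0.71, limma adjusted p = 0.18). At 12 h it was 3.00 (SE 0.71, limma adjusted p = 0.041). The 12 h call was lost when any one of the 4 vehicle arrays was left out, with changes of 2.69 to 3.26 and limma adjusted p of 0.065 to 0.13. In all tests of a single NaF array the spread came from pooled vehicle samples of different times, on the assumption that a NaF array has the same spread.

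Cxcl3 had vehicle signals of 11.89, 11.77, 11.78 and 11.29 and NaF signals of 11.58, 12.22 and 13.08. The vehicle arrays of 0, 3 and 6 h lay close together and that of 12 h was lower, while the NaF arrays of 6 and 12 h exceeded every vehicle array. Its changes against the vehicle mean at 3, 6 and 12 h were -0.10, 0.53 and 1.39 (SE 0.24). The last passed the test (limma adjusted p = 0.017) and the one before it did not (limma adjusted p = 0.26). At 12 h the signal was 3.44-fold that of vehicle of the same time. The call at 12 h was lost without the 3 h vehicle array (limma adjusted p = 0.063) or without the 6 h one (limma adjusted p = 0.068). Of its other 4 probe sets, the bright pair gave 1.45 and 1.43 at 12 h, and both were called. The identifier of the first of these holds an x, which marks probes that may bind other transcripts too. The dim pair stayed between 2.09 and 3.21 on all 7 arrays, and their changes at 12 h were 0.02 and 0.25, neither called. With all 5 probe sets averaged the change of Cxcl3 was 0.91.

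Cxcl1 had vehicle signals of 12.74, 12.85, 12.42 and 11.96 and NaF signals of 12.71, 13.10 and 13.22. As with Cxcl2, the arrays of 6 and 12 h of NaF stood above all vehicle arrays, by a smaller margin. NaF minus vehicle of the same time was -0.14 at 3 h, 0.68 at 6 h and 1.26 at 12 h, a 2.40-fold difference at 12 h. Against the vehicle mean of 12.49 ± 0.40 (SD, n = 4) the change at 12 h was 0.73 with a 95% interval of -0.21 to 1.66, which did not pass the test (limma adjusted p = 0.24).

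Among the transmembrane chemokines, Cxcl16 and Cx3cl1 moved in opposite directions at 12 h. Cxcl16 had vehicle signals of 11.52, 11.49, 11.52 and 11.38 and NaF signals of 11.42, 11.63 and 11.82. The vehicle arrays spanned only 0.15 log2 units, and the change at 12 h, 0.34 (SE 0.08, limma adjusted p = 0.042), was a 1.27-fold difference. This call was lost without the vehicle array of 0, 3 or 6 h, at limma adjusted p of 0.066 to 0.099. Cx3cl1 had vehicle signals of 7.04, 7.53, 7.14 and 6.91 and NaF signals of 6.90, 6.54 and 5.95. Each NaF array was below all 4 vehicle arrays, although the one of 3 h was below the 12 h vehicle array by a narrow margin. Its change was -0.25 at 3 h, -0.62 at 6 h and -1.21 at 12 h (SE 0.24, limma adjusted p = 0.026), a signal 2.31-fold lower. The 12 h call was lost without the vehicle array of 0, 6 or 12 h, at limma adjusted p of 0.056 to 0.096.

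Cxcl10 had vehicle signals of 5.90, 6.11, 6.07 and 6.08 and NaF signals of 6.21, 6.86 and 5.94. The 6 h NaF array stood apart from the other 6, which lay between 5.90 and 6.21. The change at 6 h was 0.82 (SE 0.10, limma adjusted p = 0.014), or 1.77-fold, and that at 12 h was -0.10 (limma adjusted p = 0.61). The fall from 6 to 12 h of NaF was -0.92 (SE 0.13, limma adjusted p = 0.025). Without the 6 h or the 12 h vehicle array the call at 6 h was lost (limma adjusted p = 0.08 and 0.069), and that of the fall was lost without the vehicle array of 3, 6 or 12 h (limma adjusted p of 0.053 to 0.099). The signal never reached a log2 value of 7, so that Cxcl10 fell under both filters on low signal. Cx3cl1, the next dimmest, fell under the filter on mean signal alone, and the other 7 genes passed both.

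The monocyte attractants Ccl2 and Ccl7, neighbours in the genome, were both below vehicle at 3 h and then parted. Ccl2 had vehicle signals of 13.20, 13.19, 12.95 and 12.66 and NaF signals of 11.94, 12.45 and 12.75. The NaF arrays of 3 and 6 h were below every vehicle array, and that of 12 h was between the vehicle arrays of 12 h and 6 h. Against vehicle of the same time Ccl2 was at -1.24 at 3 h, rank 86 from the lowest of 31042, at -0.51 at 6 h and at 0.09 at 12 h. Against the vehicle mean the change at 3 h was -1.06 (SE 0.23, limma adjusted p = 0.14). That value passed only when dim probe sets were removed before the test, at limma adjusted p = 0.037 with a filter on the mean signal and 0.04 with one on the highest. At 12 h the change was -0.25 with a 95% interval of -0.85 to 0.35.

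Ccl7 had vehicle signals of 11.26, 11.21, 10.91 and 10.50 and NaF signals of 10.07, 9.88 and 9.27. All 3 NaF arrays were below all 4 vehicle arrays, and signals went down with time in both groups. NaF minus vehicle of the same time was -1.14, -1.03 and -1.23, so that the distance between the groups stayed near 1 log2 unit throughout. Against the vehicle mean the changes at 3, 6 and 12 h were -0.90, -1.09 and -1.70 (SE 0.31), and of their limma adjusted p of 0.31, 0.10 and 0.020 only the last passed. The 12 h call held only without the 12 h vehicle array and was lost without any one of the other 3, at limma adjusted p of 0.058 to 0.081. Ccl7 was the only chemokine called when the 3 NaF arrays were compared together with the 4 vehicle arrays, at -1.23 (SE 0.24, limma adjusted p = 0.049), where 0.76% of all probe sets were called lower, 1.23% higher and 1.99% in all. This comparison took the NaF times as replicates and its spread from within both groups, so a change that grows with time adds to the spread. The Ccl7 call was lost in 6 of the 7 comparisons that left out 1 array, all but the one without the 3 h NaF array, with limma adjusted p of 0.057 to 0.17.

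Ccl20 had vehicle signals of 10.54, 10.68, 10.10 and 9.80 and NaF signals of 9.29, 10.16 and 10.74. The NaF array of 3 h was the lowest of the 7 and that of 12 h the highest. Against vehicle of the same time Ccl20 went from -1.40, a signal 2.63-fold lower and rank 48 from the lowest of 31042, to 0.06 and to 0.94, a 1.92-fold higher signal. Against the vehicle mean the changes in the same order were -0.99, -0.12 and 0.46 (SE 0.36), and none passed the test (limma adjusted p = 0.33 for the first and 0.47 for the last). The difference between 3 and 6 h of NaF, 0.87 with a 95% interval of -0.33 to 2.07, also did not pass (limma adjusted p = 0.48).

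Over the 9 genes, 3 were higher (Cxcl2, Cxcl3 and Cxcl16) and 2 lower (Ccl7 and Cx3cl1) at 12 h by limma, where 12.0% of all probe sets were called higher and 12.8% lower. That is 5 of 9 in either direction, against 24.8% of all probe sets. Among probe sets that reached a log2 signal of 7, tested on their own, the share called was 60.6%, and of the 8 chemokine genes that reached it 5 were called. At 6 h only Cxcl10 was called, in the upward direction, where 4.58% of all probe sets were higher, 6.65% lower and 11.2% either. At 3 h 0 of 9 were called and 3 (Ccl2, Ccl7 and Ccl20) had an unadjusted p under 0.05, against 0.235% called higher, 0.483% lower and 0.718% in all, and 14.3% under 0.05 unadjusted over all probe sets. Between 3 and 6 h of NaF 0 of 31042 probe sets were called by limma, with 14.8% of all and 1 of 9 chemokine genes, Cxcl10, under 0.05 unadjusted. Between 6 and 12 h only Cxcl10 was called, in the downward direction, where 4.78% of all were lower, 5.64% higher and 10.4% either. The comparisons share the same 4 vehicle arrays. Ccl7 and Cx3cl1 were the 2 genes of 9 with all NaF arrays below all vehicle arrays, against 7.86% of all probe sets, and 0 of 9 had all above, against 8.1%.

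Set against the same-time vehicle array, 8 of 9 chemokine genes were below 0 at 3 h, all but Cxcl10, whereas 46.9% of all probe sets were. Against the vehicle mean the count at 3 h was 6 of 9, with a median of -0.10 and 49.8% of all probe sets below 0. The 3 h vehicle array had the widest gap between the 3' and 5' beta-actin signals, and the part of this in the differences was not tested. Set against same-time vehicle, the medians of the 9 at 3, 6 and 12 h were -0.62, 0.10 and 0.44, and that of all probe sets was 0.00 at each time. At 6 h and at 12 h 3 of 9 were below 0, against 43.2% and 46.9% of all. Past 2.5-fold were Ccl20, lower, at 3 h, where 0.229% of all probe sets were that much lower, Cxcl2, higher, at 6 h (0.715% of all), and Cxcl2 and Cxcl3, higher, at 12 h (1.38% of all). No chemokine gene was that much higher at 3 h (0.151% of all), or lower at 6 h (0.68%) or 12 h (1.16%). Nearest below the threshold were Ccl2 at 3 h, 2.37-fold lower, and Cxcl1 at 12 h, 2.40-fold higher.

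**Figure D2:**
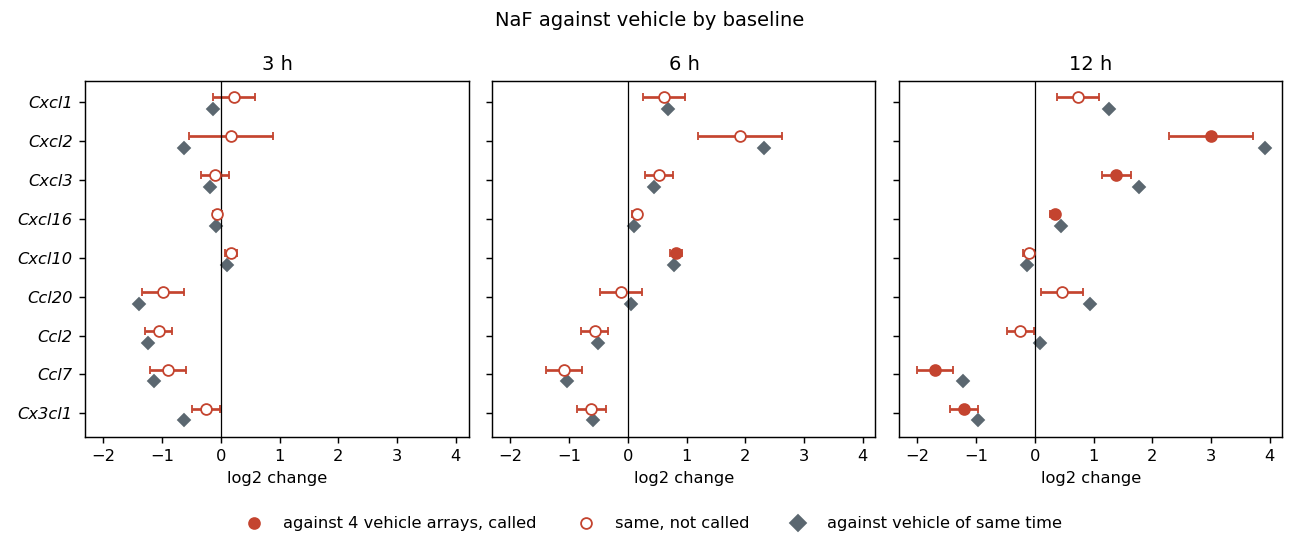
Log2 change of each chemokine gene (x axis) at 3, 6 and 12 h of NaF against the mean of 4 vehicle arrays (circles, bars 1 standard error of the limma fit, filled where the adjusted p was under 0.05) and against the single same-time vehicle array (diamonds, no error). At 12 h the diamonds lie to the right of the circles for all genes but Cxcl10, which makes the change larger for Cxcl2 (3.92 against 3.00) and smaller for Ccl7 (-1.23 against -1.70).

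The vehicle arrays themselves were not level for these genes. From the control array to 12 h of vehicle, Cxcl2 went down by 1.47 log2 units, or 2.76-fold, which was the lowest of all 31042 probe sets and 1 of only 3 (0.00966%) past 2.5-fold in either direction. At 3 and 6 h of vehicle none of the 9 was past it, against 0.00322% and 0.0% of all. Cxcl1 (-0.79), Ccl7 (-0.76) and Ccl20 (-0.74) ranked 47, 64 and 76 from the lowest, followed by Cxcl3 (-0.60) and Ccl2 (-0.54) at ranks 265 and 450. Cxcl16 (-0.15), Cx3cl1 (-0.13) and Cxcl10 (0.18) were nearer to 0. In all, 8 of 9 were below 0 at 12 h against 48.5% of all probe sets, with a median of -0.60 against 0.00. Most of this lay after 3 h: the vehicle array of 3 h was above the control array for Cxcl1, Cxcl2, Ccl20, Cxcl10 and Cx3cl1, the last by 0.49. For 5 of 9 (Cxcl1, Cxcl2, Ccl2, Ccl7 and Ccl20) the 12 h array was below that of 6 h and the latter below both earlier ones, an order found in 9.02% of all probe sets. The range over the 4 vehicle arrays had a median of 0.62 over the 9 genes and 0.23 over all probe sets, and it was 1.72 for Cxcl2.

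**Figure D3:**
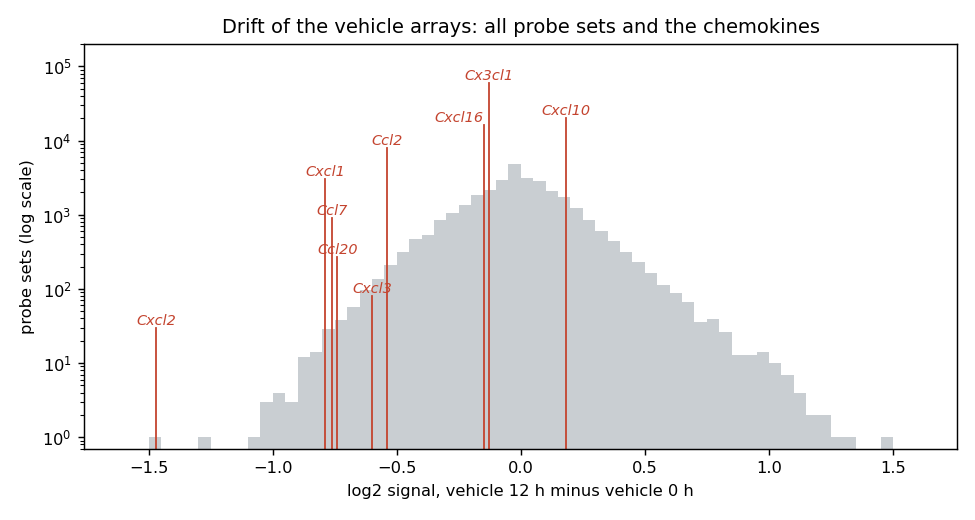
Number of probe sets (y axis, log scale) by the difference in log2 signal between the 12 h vehicle array and the 0 h control array (x axis, bins of 0.05), with the 9 chemokine genes marked by lines whose heights only keep the names apart. Cxcl2 at -1.47 is at the left end of all 31042 probe sets, and Cxcl1, Ccl7, Ccl20, Cxcl3 and Ccl2 lie between -0.79 and -0.54.

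A straight line of log2 signal on hours over the 4 vehicle arrays had a slope per 12 h of -1.70 for Cxcl2 (SE 0.42), -0.88 for Cxcl1 (SE 0.18), -0.86 for Ccl20 (SE 0.22), -0.80 for Ccl7 (SE 0.11), and -0.58 for both Cxcl3 (SE 0.13) and Ccl2 (SE 0.10). None passed the correction, since limma called 0 of 31042 probe sets and the adjusted p was 0.68 for each of these 6 genes. Unadjusted, these 6 of 9 had p under 0.05, against 7.18% of all probe sets.

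The size of each NaF difference depended on which vehicle signal it was set against. For Cxcl2 at 12 h the difference was 3.92 against vehicle of the same time, 3.00 against the vehicle mean and 2.46 against the control array. For Cxcl1 these were 1.26, 0.73 and 0.48, for Cxcl3 1.78, 1.39 and 1.19, and for Ccl20 0.94, 0.46 and 0.20. Ccl2 changed sign between them, at 0.09, -0.25 and -0.45, whereas Ccl7 grew in size, at -1.23, -1.70 and -1.99. When the straight line through the vehicle arrays replaced their mean as the baseline, a fit added after the values were seen, the 12 h changes were 1.22 for Cxcl1 (limma adjusted p = 0.030), 3.95 for Cxcl2 (limma adjusted p = 0.019), 1.72 for Cxcl3 (limma adjusted p = 0.016) and -1.25 for Ccl7 (limma adjusted p = 0.016). In that fit Cxcl1 was called in addition, Cxcl16 (limma adjusted p = 0.053) and Cx3cl1 (limma adjusted p = 0.10) were not, and Ccl20 was at 0.95 (limma adjusted p = 0.068). At 6 h it called Ccl7 at -1.04 (limma adjusted p = 0.020) and Ccl2 at -0.52 (limma adjusted p = 0.047) beside Cxcl10.

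The genes that surround the chemokines were read from lists chosen for their roles, each gene at its brightest probe set. Of all probe sets, the shares called higher at 3, 6 and 12 h were 0.235%, 4.58% and 12.0%, and those called lower 0.483%, 6.65% and 12.8%. Genes beyond the naming rule are named here to complete a count or for their known role, after their values were seen. Of 22 other chemokines, 18 did not reach a log2 signal of 7 on any array. Cxcl12, the ligand of Cxcr4, was higher at 6 h (0.35) and 12 h (1.34, SE 0.06, limma adjusted p = 0.0023), and Ccl6 was lower at 6 h (-0.50) and 12 h (-1.22, SE 0.10, limma adjusted p = 0.003). Cxcl6, with signals of 8.55 to 9.77, was at -0.90, -0.55 and -0.29 at 3, 6 and 12 h, and was not called. Against same-time vehicle it was at -0.27, -0.88 and -0.41, below 0 where Cxcl1, Cxcl2 and Cxcl3 were above it at 6 and 12 h. Ccl17 (-0.46) and Ccl27 (-0.46) were not called at 12 h, and the median of the list was -0.01, as for all probe sets. Of 17 chemokine receptors, 15 did not reach 7. The 12 h calls among them were Cxcr3 (0.38), Ccr1 (0.26) and Cx3cr1 (-0.47), all 3 with signals under 5 on every array, and Cxcr2, the receptor of Cxcl1, Cxcl2 and Cxcl3, was at -0.27 (limma adjusted p = 0.22).

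All 14 NF-kB subunits and feedback inhibitors reached 7, and their median changes at 3, 6 and 12 h were 0.18, 0.44 and 0.33, against 0.00, 0.00 and -0.01 for all probe sets. Few passed the test: Nfkbib, an inhibitor of NF-kB, was higher at 6 h (0.71) and 12 h (0.91, SE 0.08, limma adjusted p = 0.0038), Chuk, a kinase of the pathway, was higher at 12 h (0.33), and Tnip1 was lower at 6 h (-0.33) and 12 h (-0.50). Nfkb2 (0.65, limma adjusted p = 0.065) and Nfkbiz (0.71, limma adjusted p = 0.059) did not pass at 12 h. Of 16 upstream cytokines and their receptors, 0 were called at 3 h, 2 were higher and 4 lower at 6 h, and 3 were higher and 3 lower at 12 h, the last near the shares of all probe sets. Tnf had vehicle signals of 5.99, 6.47, 5.55 and 5.25 and NaF signals of 8.99, 9.69 and 8.30, with every NaF array above every vehicle array. Its changes at 3, 6 and 12 h were 3.17, 3.87 and 2.49 (SE 0.47), with limma adjusted p of 0.076, 0.015 and 0.022 in that order. Tnf was thus highest at 6 h and Cxcl2 at 12 h. Il1a had vehicle signals of 11.33, 11.46, 10.63 and 10.33, a course like that of Cxcl1 and Cxcl2, and NaF signals of 11.61, 12.25 and 12.33, with a change of 1.40 at 12 h (SE 0.49, limma adjusted p = 0.11). Il17ra was higher at 6 h (0.72) and 12 h (0.99), and Il1b at 12 h (0.39), though its signal stayed between 3.51 and 3.97 on all 7 arrays. Il1r1, the interleukin-1 receptor, was lower at 6 h (-1.35) and 12 h (-1.03), and Ifngr1 at 6 h (-0.54) and 12 h (-0.74). Tnfrsf1a (-0.76) and Ifnar1 (-0.87) were called lower at 6 h only, though Tnfrsf1a was at -0.86 at 3 h, where it was not called. Ifngr2 (-0.77) was called lower at 12 h only. The difference between the times was not tested for these 3.

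Of 19 interferon response genes, 1 was lower at 3 h (Irf1), 3 were lower at 6 h (Irf1, Irf9 and Ifit2), and 3 were higher (Rsad2, Usp18 and Psmb8) and 6 lower (Irf1, Gbp2, Irf7, Stat2, Isg15 and Psmb9) at 12 h. Irf1, a transcription factor of the interferon pathway, changed by -1.31, -1.62 and -1.82 (SE 0.11) at 3, 6 and 12 h, and Gbp2 by -1.79 at 12 h (SE 0.15), whereas Rsad2 was at 2.64 (SE 0.36, limma adjusted p = 0.0093) and Oasl at 0.59 (limma adjusted p = 0.12). At 6 h none of the 19 was called higher, with Rsad2 at 0.80 (limma adjusted p = 0.26), Oasl at 0.75 (limma adjusted p = 0.096), Irf7 at 0.47 (limma adjusted p = 0.071) and Usp18 at 0.42 (limma adjusted p = 0.068). Of 11 sheddases and their partners only Mmp2, lower at 12 h (-0.50), was called at any time. The signal of Mmp2 was low, between 4.47 and 5.34 on every array. Adam17, which sheds both Cxcl16 and Cx3cl1 in many cells, was at 0.04 at 12 h (limma adjusted p = 0.83), Adam10 at 0.13, Adam15 at -0.41 and Mmp9 at -0.29. Of 10 regulators of AU-rich mRNA decay, Zfp36, which speeds the decay of cytokine mRNAs, was higher at all 3 times, by 2.11, 2.01 and 1.05 (SE 0.13, limma adjusted p = 0.025, 0.0055 and 0.0066). Zfp36l1 and Hnrnpd were lower at 6 h (-0.58 and -0.55) and 12 h (-0.47 and -0.24), Elavl1 was lower at 12 h (-0.26), and Zfp36l2 (-0.34) and Tial1 (0.29) were not called there.

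**Figure D4:**
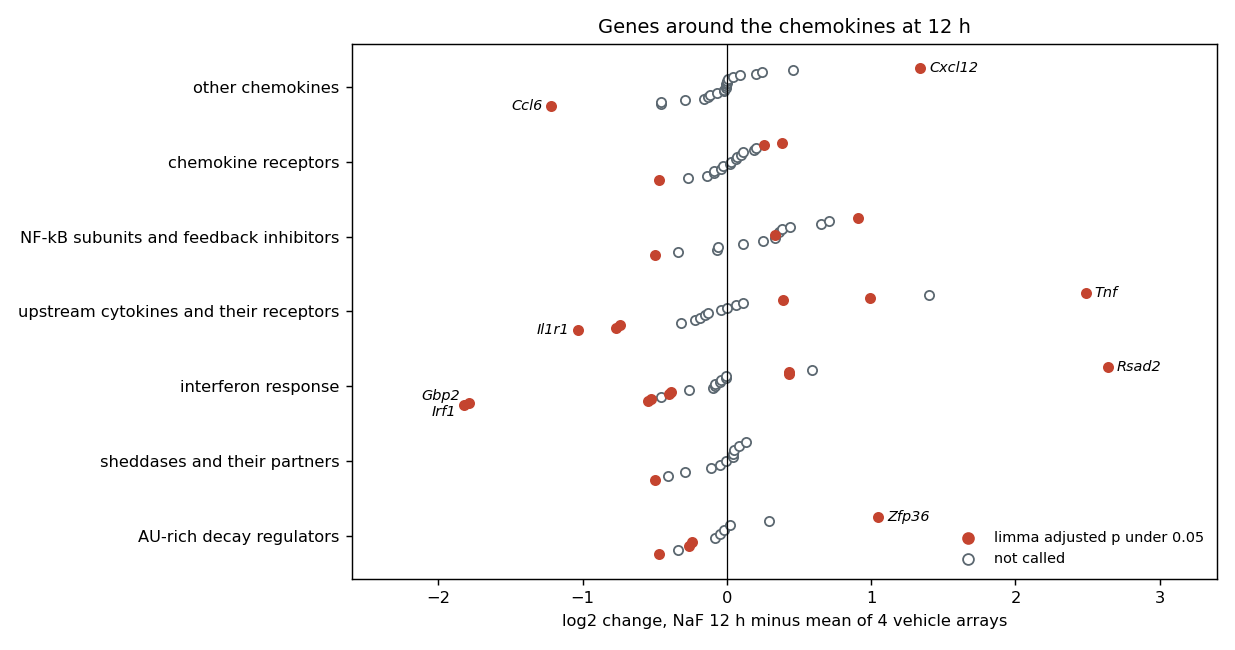
Log2 change at 12 h of NaF against the mean of 4 vehicle arrays (x axis) of each gene in 7 lists around the chemokines (rows), 1 point a gene, filled where the limma adjusted p was under 0.05 and named where the change was also 1 or more in size. Tnf (2.49), Rsad2 (2.64), Cxcl12 (1.34) and Zfp36 (1.05) lie furthest to the right, and Irf1 (-1.82), Gbp2 (-1.79), Ccl6 (-1.22) and Il1r1 (-1.03) furthest to the left among the called genes.

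The chemokine genes differed in which of them ran together over the 7 arrays. Pearson correlations, given as a description over 7 arrays of which 4 share the vehicle and 3 the NaF treatment, were 0.93 between Cxcl1 and Cxcl2, 0.94 between Cxcl2 and Cxcl3, 0.99 between Cxcl3 and Cxcl16, 0.91 between Ccl7 and Cx3cl1 and 0.81 between Ccl2 and Ccl20. The neighbours Ccl2 and Ccl7 had 0.64, and Ccl7 with Cxcl2 had -0.64. Cxcl10 exceeded 0.28 with none of the others. Among the 1382 or 1383 other genes that spanned at least 1 log2 unit and reached 7, the closest to Cxcl1 was Il1a (0.962), followed by Gprc5a and Ptgs2, the inducible cyclooxygenase. Closest to Cxcl2 were Il24 (0.984), Gprc5a and Cebpd, and to Cxcl3 S100a9 (0.985), a calgranulin subunit, Dhx37 and Exosc1. Cxcl16 was closest to Cxcl3 (0.993), Srfbp1 and Birc3. Closest to Ccl7 were Csf1 (0.992), the macrophage growth factor, Gjb5 and Fgfbp1, and to Cx3cl1 Gk (0.981), H6pd and Slc31a2. Ccl2 came closest to Dusp7 (0.95), Tgif1 and Micall2, Ccl20 to Tgif1 (0.905), Wdr53 and Vasn, and Cxcl10, with the lowest values of the 9, to Ttyh2 (0.872), Ch25h and Pdlim7. Against vehicle of the same time Csf1 was at -0.93, -0.75 and -1.24 at 3, 6 and 12 h, and Dusp7 at -1.24, -0.42 and 0.14. Both were picked by correlation over these same arrays, so their likeness to Ccl7 and Ccl2 here follows from that choice.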

How the data were processed

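Arrays were Affymetrix Rat Genome arrays, each hybridized with cRNA made from 500 ng of pooled total RNA. The authors analyzed the scans in GeneSpring GX and deposited normalized log2 signals, 1 a probe set. How they normalized, and with which version, is not given in the sources used here. They were used as deposited, and 0 columns were left out. Probe sets were named through GEO's platform annotation, which can be old: of 31042 tested probe sets, 20826 had 1 symbol, 436 several and 9780 none, and 57 control probe sets were left out. Samples were grouped by treatment and time in the labels.

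The functions lmFit and eBayes of limma 3.58.1 (R 4.3.3) were run on all 31042 probe sets with Benjamini-Hochberg adjustment, and an adjusted p under 0.05 was called. Each NaF array was compared with the 4 vehicle arrays (3 residual and 1.8 prior degrees of freedom), the 3 NaF arrays with the 4 vehicle arrays (5 and 2.8), and the vehicle arrays were fitted to a line over time (2 and 1.86). Over all probe sets, the SD among vehicle arrays had a median of 0.105 and the standard error at 12 h one of 0.109. The number of arrays limits the precision, and p-values measure the spread between these pools. Differences between single arrays were called at 2.5-fold. A gene was read at its probe set of highest mean signal. The fits were run on simulated data with independent noise of the vehicle spread on every array and, for the NaF tests, no drift. That check cannot show whether NaF arrays vary like vehicle.

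The genes, lists and tests were chosen with earlier results of these data known. Named were all chemokine genes of the set, in each of the first 7 lists below the up to 4 genes with the largest change at 12 h, and for each chemokine the 3 genes of highest correlation. The lists were other chemokines, chemokine receptors, NF-kB subunits and inhibitors, upstream cytokines, interferon response, sheddases, AU-rich decay regulators, and epithelial, leukocyte, mesenchymal, endothelial and muscle markers. Alternatives were filters on low signal, other scalings, a variance trend, gene means, other baselines, a time block, the methods' t-test and each array left out. A baseline line through the vehicle arrays and hours as a covariate were added after seeing the data.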

Additional observations from a re-analysis of the deposited data

Results flagged for a closer look

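Within the 4 vehicle arrays, 1 of the bright probe sets of Cxcl3 had its lowest array apart from the rest, with a gap of 0.87 of the whole range, since the 12 h array was at 10.25 and the others between 10.78 and 10.86. Cxcl10 likewise had a gap of 0.83 of its range, since the control array was at 5.90 and the others between 6.07 and 6.11. Over the 13 probe sets examined, chance alone gives such gaps now and then. Cxcl10 also differed between the 12 h and the 6 h arrays of NaF by -0.92 (SE 0.13, limma adjusted p = 0.025), which is a difference between times of the same contrast.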

How the results depend on the processing

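The labels give no replicate numbers, so arrays could be paired by time alone. With time as a block over the arrays of 3, 6 and 12 h, 0% of all probe sets and 0 chemokine genes were called over the NaF arrays together, and Ccl7 was at -1.14 (limma adjusted p = 0.14). The methods' t-test called 15.0% and 1 chemokine gene, Ccl7, without adjustment, and 0% and 0 chemokine genes with Benjamini-Hochberg. The shares that follow are each of the probe sets or genes in that fit. With a filter these were only the probe sets that passed it, 10707 for the filter on mean signal, and with gene means the genes. Shares with a filter or gene means therefore have another base than those of all probe sets. At 3 h the share called, 0.718% as reported, was 9.04% with the filter on mean signal and 8.79% with that on highest signal. It was 1.18% with equal medians, 1.77% with quantile normalization, 1.38% with a variance trend and 2.58% with gene means. With the vehicle line it was 0%, as it was without any one vehicle array. At 6 h the 11.2% became 38.9% and 38.4% with the filters and 17.0% with gene means, and 0% to 8.26% without a vehicle array. At 12 h the 24.8% became 60.6% with either filter, 15.4% with the vehicle line and 13.2% to 23.2% without a vehicle array. Between 3 and 6 h of NaF the 0% became 6.86% and 6.2% with the filters and 0.319% with quantile normalization. Between 6 and 12 h the 10.4% became 41.5% and 40.2% with the filters, 18.3% with gene means and 0% to 8.26% without a vehicle array. For the NaF arrays together the 1.99% became 8.5% and 8.66% with the filters, 3.14% with gene means, 0.0999% to 0.219% without a vehicle array and 0.209% to 10.8% without a NaF array.

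Of the chemokine genes, 1 was called lower at 3 h and 1 lower and 0 higher at 6 h under either filter, and between 6 and 12 h 0 were called lower under either filter, which remove Cxcl10. At 12 h 1 was lower with the mean filter, which also removes Cx3cl1, and with the vehicle line 1 was lower at 12 h and 2 at 6 h. Without a vehicle array 0 to 1 were higher at 6 h, 0 to 2 higher and 0 to 1 lower at 12 h, 0 to 1 lower between 6 and 12 h, and 0 lower over the NaF arrays together. Without a NaF array 0 to 1 were higher and 0 to 2 lower there. Of single-array differences past the fold, 0 were lower at 3 h against the vehicle mean or the control array and 3 at 2-fold. At 6 h 1 was lower against the control array or at 2-fold, and at 12 h 1 was lower against the vehicle mean, the control array or at 2-fold, and 1 higher against the control array. Against same-time vehicle in place of the vehicle mean, Cxcl1 at 3 h turned from 0.22 to -0.14, Cxcl2 at 3 h from 0.17 to -0.62, Ccl20 at 6 h from -0.12 to 0.06 and Ccl2 at 12 h from -0.25 to 0.09. Other changes that turned direction were Cxcl2 at 3 h from 0.17 to -0.14 without the 12 h vehicle array (-0.14 to 0.44 over the vehicle arrays left out) and to -0.15 with the vehicle line, Ccl20 at 6 h from -0.12 to 0.01 without the 3 h vehicle array (-0.28 to 0.01), Ccl2 at 12 h from -0.25 to 0.07 with the vehicle line, and Ccl20 over the NaF arrays together from -0.22 to 0.17 without the 3 h NaF array (-0.56 to 0.17). The cause of these shifts was not tested. By design a filter changes which probe sets are corrected for and counted. Leaving out an array changes the mean and the spread as well as the degrees of freedom. With 1 array a condition, signals near background such as that of Cxcl10 and the 2 dim probe sets of Cxcl3 limit what can be seen.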
